A study of Mus musculus with 20 samples.

Results

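The genes described here make the peptides that cells display on MHC class I and carry them to it. They are the 3 inducible catalytic subunits of the immunoproteasome (Psmb8, Psmb9 and Psmb10), both subunits of its activator PA28 (Psme1 and Psme2), both chains of the peptide transporter TAP (Tap1 and Tap2), the loading chaperone tapasin (Tapbp), the class I light chain β2-microglobulin (B2m) and the class I transactivator Nlrc5. They were matched by gene symbol. Of these 10 genes, 9 had a row among the 22206 transcript clusters of the array, each with 1 cluster. Nlrc5 was not analysed here. The values came from livers of adult male offspring of C57BL/6NCr mice, an inbred strain, 1 array per animal and 20 arrays in 4 groups of 5. All offspring were 4 to 5 months old and had chow and water freely. The labels call the dams wild type and name no transgene or deletion. The groups differ in the ambient temperature of the pregnant dam, which was 10, 18, 23 or 30 °C. Dams had been acclimated for 3 weeks to 30 °C or for 2 weeks to 18 or 10 °C before mating, sires had met the same temperature for 3 days, and the 23 °C group, at standard housing temperature, was the control. Every litter was moved to 23 °C on the day of birth, so the animals themselves lived at 23 °C as adults. The labels assign no animal to a litter, so how many independent pregnancies each group holds is not known, and p-values measure the spread between animals.

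The standard proteasome degrades cytosolic proteins with catalytic sites in its β subunits. Interferon γ induces replacement subunits that take the place of the standard ones in newly built particles: Psmb8 replaces Psmb5, Psmb9 replaces Psmb6 and Psmb10 replaces Psmb7. PA28 caps the particle and opens it. TAP pumps the resulting peptides into the endoplasmic reticulum, where tapasin helps to load them onto a class I heavy chain bound to β2-microglobulin. In liver, hepatocytes carry class I, and resident macrophages, endothelium and lymphocytes also use this machinery. Psmb8, Psmb9, Tap1, Tap2 and Tapbp lie in the MHC region of mouse chromosome 17.

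RefSeq promoter windows, from 250 bases before to 50 bases after the annotated start on GRCm38.p6, were matched for 8 of the 10 genes. The windows of 4 genes are shown because they hold either the shared start region of Tap1 and Psmb9 or a match to an interferon-response motif. Each is written 5′ to 3′ on the strand of its gene, with the matched motif in capitals. The first is Tap1, at chr17:34187306-34187605 on the plus strand, which holds no match. The others are Psmb8 at chr17:34197945-34198244, Psme1 at chr14:55578244-55578543 and B2m at chr2:122147437-122147736, all on the plus strand.
Tap1: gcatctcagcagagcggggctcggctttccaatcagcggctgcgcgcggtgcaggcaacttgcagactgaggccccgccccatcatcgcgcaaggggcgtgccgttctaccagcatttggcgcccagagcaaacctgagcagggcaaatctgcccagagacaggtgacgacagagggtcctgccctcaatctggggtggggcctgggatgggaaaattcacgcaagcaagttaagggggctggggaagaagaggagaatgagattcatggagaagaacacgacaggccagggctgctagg
Psmb8: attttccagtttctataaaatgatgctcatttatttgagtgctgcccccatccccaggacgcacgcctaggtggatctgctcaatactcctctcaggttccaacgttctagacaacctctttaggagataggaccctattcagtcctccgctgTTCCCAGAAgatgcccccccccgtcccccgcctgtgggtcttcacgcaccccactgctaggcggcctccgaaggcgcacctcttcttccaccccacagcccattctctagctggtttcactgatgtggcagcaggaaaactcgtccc
Psme1: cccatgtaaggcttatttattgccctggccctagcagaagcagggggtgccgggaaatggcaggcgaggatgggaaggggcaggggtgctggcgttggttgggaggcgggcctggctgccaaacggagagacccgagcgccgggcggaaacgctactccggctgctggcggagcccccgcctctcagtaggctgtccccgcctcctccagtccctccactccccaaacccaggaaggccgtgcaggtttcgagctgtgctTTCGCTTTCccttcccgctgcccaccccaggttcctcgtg
B2m: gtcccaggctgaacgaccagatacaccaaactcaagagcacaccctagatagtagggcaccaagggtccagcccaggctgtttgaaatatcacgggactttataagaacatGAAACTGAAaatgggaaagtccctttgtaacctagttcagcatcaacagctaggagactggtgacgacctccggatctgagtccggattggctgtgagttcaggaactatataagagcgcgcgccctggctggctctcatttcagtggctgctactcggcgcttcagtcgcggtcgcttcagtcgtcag

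Tap1 and Psmb9 are read away from each other. The annotated starts are 226 bases apart, and the Psmb9 window, chr17:34187281-34187580 on the minus strand, shares 275 bases with that of Tap1. A total of 3 motifs was searched on both strands. The core of the interferon-stimulated response element, searched as GAAANNGAA, was found in Psme1 at position 11 on the opposite strand and in B2m at position -139, counted from the start. It occurs in 8.56% of the 32851 mouse windows of the same length. The γ-activated site, searched as TTCNNNGAA, was found in Psmb8 at position -97 and occurs in 8.298% of windows. The cyclic AMP response element, searched as TGACGTCA, was found in none of the 8 genes and occurs in 1.79% of windows. These are letter matches in short windows and no measure of binding.

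No gene of the set passed the threshold of limma's adjusted p of 0.05 in any comparison, so what follows are measured levels and differences that did not reach it. Group means followed 3 patterns, which overlapped. Psmb9, Psme1, Tap1 and B2m were highest in the 18 °C offspring. Psmb8, Psmb10, Psme2 and Tap1 were lowest in the 23 °C offspring, and Tapbp was highest there. Psme2 had nearly equal means in both cold-dam groups, Tap2 was highest at 10 °C, and B2m was lowest at 30 °C. Values are on the log2 scale of the array, where a difference of 1 is a doubling, and arrays of this kind do not allow the level of one gene to be set against that of another. All 9 genes lay above 3.90, the 95th percentile of olfactory receptor genes, which served as a mark for genes with little liver signal. All 8 hepatocyte markers also lay above it, with list means of 19.09 to 19.33 over the arrays. In whole liver, a higher level in every cell and a larger share of expressing cells cannot be told apart.

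**Figure D1:**
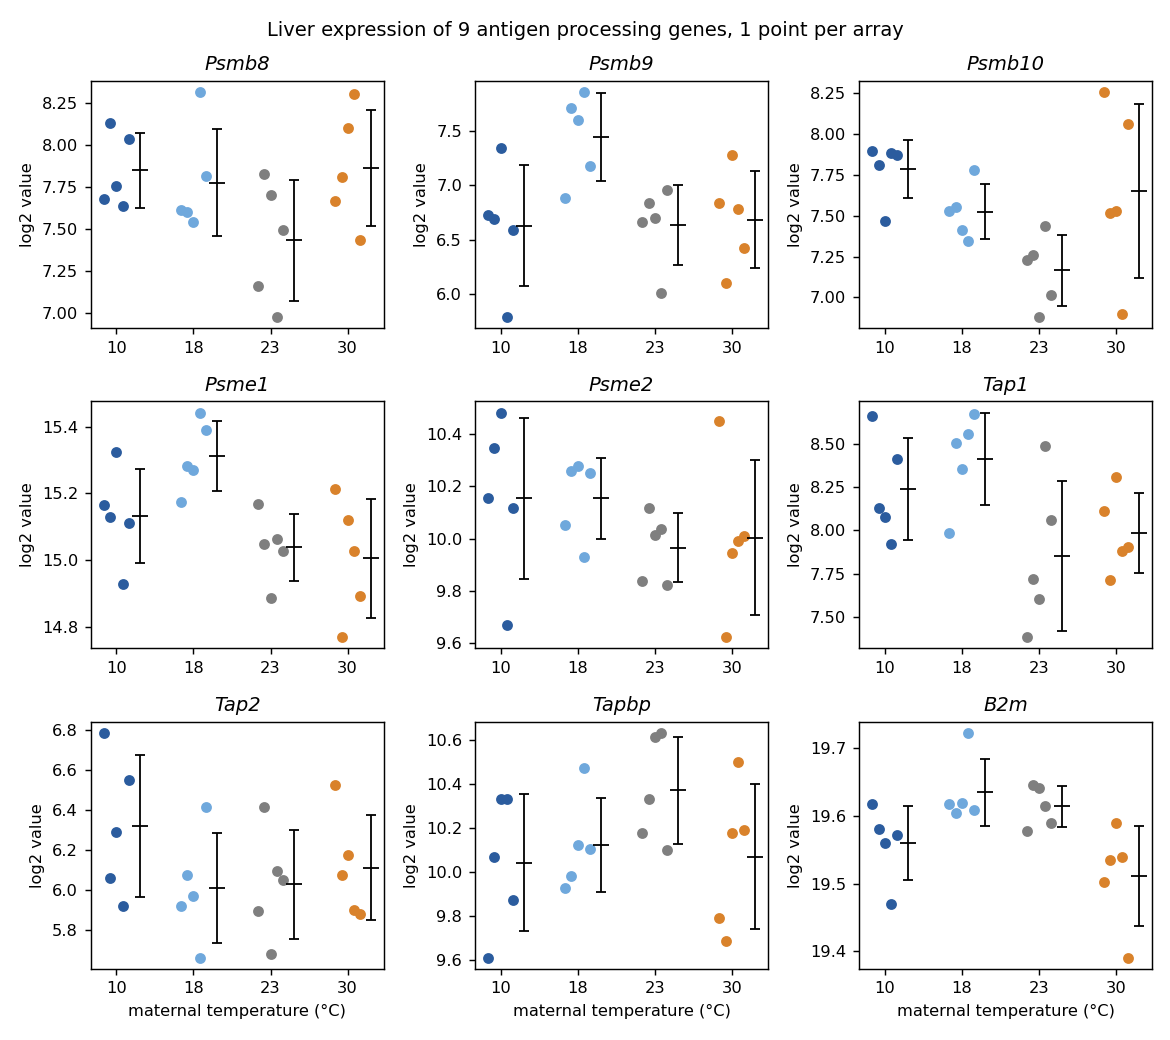
Log2 values (vertical axes, scaled separately) of the 9 genes in each of the 20 livers (points) against maternal temperature in °C, with the group mean and SD (bars, n = 5). The 18 °C livers are high for Psmb9, Psme1 and Tap1, the 23 °C livers low for Psmb10, and most other groups overlap.

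Psmb9 encodes the inducible catalytic subunit β1i. Its values were 6.88, 7.71, 7.60, 7.85 and 7.17 in the 18 °C offspring. They were 6.66, 6.83, 6.70, 6.01 and 6.96 in the 23 °C offspring. Only 1 of the 5 livers of the 18 °C group lay inside the range of the control livers, and the other 4 lay above it. The 10 °C livers gave 6.73, 6.69, 7.34, 5.80 and 6.59, and the 30 °C livers gave 6.84, 6.10, 7.27, 6.78 and 6.43. Group means were 6.63 ± 0.55, 7.44 ± 0.40, 6.63 ± 0.37 and 6.68 ± 0.44 (SD, n = 5) at 10, 18, 23 and 30 °C, so 3 means were alike and the 18 °C mean stood above them. The level in 18 °C offspring was 0.81 ± 0.26 (SE) above control on the log2 scale, 1.75-fold, with a limma adjusted p of 0.346 and an exact two-sided permutation p of 0.0159 for this gene alone. It was also 0.76 ± 0.26 above the 30 °C group (limma adjusted p = 0.449, exact p = 0.0317) and the 10 °C group was 0.81 below it (limma adjusted p = 0.462, exact p = 0.0317). The 10 °C mean differed from control by -0.0038, with an SE of 0.26 (limma adjusted p = 0.997). With 5 arrays per group, the smallest p the exact test can give is 0.00794.

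Psmb10 encodes β2i, the trypsin-like subunit. The 10 °C livers gave 7.89, 7.81, 7.47, 7.88 and 7.87, and the 23 °C livers gave 7.23, 7.26, 6.88, 7.44 and 7.02. Every 10 °C liver was higher than every control liver. The difference was 0.62 ± 0.19 (SE), 1.54-fold, with a limma adjusted p of 0.214 and an exact p of 0.00794. The 18 °C livers, at 7.53, 7.55, 7.41, 7.35 and 7.78, lay inside the 10 °C range in 3 cases and inside the control range in 2, with a mean 0.36 above control (limma adjusted p = 0.586, exact p = 0.0238). The 30 °C livers spread from 6.90 to 8.26 and their mean was 0.49 above control (limma adjusted p = 0.978, exact p = 0.103). The order of group means was thus 10 °C at 7.79, 30 °C at 7.65, 18 °C at 7.53 and 23 °C at 7.16, and the first 3 overlapped one another. When the array's own background signal entered the model, the 10 °C difference was 0.35.

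Psmb8 encodes β5i, the chymotrypsin-like subunit. Its values were 7.68, 8.14, 7.76, 7.64 and 8.04 in the 10 °C group and 7.61, 7.60, 7.54, 8.32 and 7.81 in the 18 °C group. Control livers gave 7.16, 7.83, 7.71, 6.98 and 7.50, and 30 °C livers gave 7.67, 7.81, 8.11, 8.31 and 7.44. All groups overlapped, and 2 control livers were the lowest of the 20. Means were above control by 0.42 ± 0.19 at 10 °C, 0.34 ± 0.19 at 18 °C and 0.43 ± 0.19 at 30 °C (SE; limma adjusted p = 0.409, 0.612 and 0.978). The exact p was 0.0794 at 10 °C, 0.183 at 18 °C and 0.111 at 30 °C. These 3 differences use the same 5 control livers and are not independent of one another.

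Psme1 encodes PA28α. Its values were 15.18, 15.28, 15.27, 15.44 and 15.39 in the 18 °C livers and 15.17, 15.05, 14.89, 15.06 and 15.03 in the control livers. The groups did not overlap, although the lowest 18 °C liver and the highest control liver were nearly equal. The difference was small, 0.27 ± 0.12 (SE) or 1.21-fold, with a limma adjusted p of 0.493 and an exact p of 0.00794. The 10 °C livers ranged from 14.93 to 15.32 and the 30 °C livers from 14.77 to 15.21. Against the 30 °C group the 18 °C mean was 0.31 higher (limma adjusted p = 0.508, exact p = 0.0159). Psme2 encodes PA28β, the partner that forms rings with PA28α. Its group means were 10.15 ± 0.31, 10.15 ± 0.15, 9.97 ± 0.13 and 10.00 ± 0.30 (SD, n = 5) at 10, 18, 23 and 30 °C, and all 4 groups overlapped. Its difference from control was 0.19 ± 0.16 (SE) in both cold groups, with limma adjusted p of 0.681 at 10 °C and 0.762 at 18 °C.

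Tap1 encodes one chain of the peptide transporter. Its values were 7.99, 8.50, 8.36, 8.56 and 8.67 in the 18 °C group and 8.66, 8.13, 8.08, 7.92 and 8.41 in the 10 °C group. Control livers gave 7.38, 7.72, 7.61, 8.49 and 8.06, and 30 °C livers gave 8.11, 7.71, 8.31, 7.88 and 7.91. Of the 5 control livers 3 were below every cold-dam liver, and 1 control liver was as high as the upper cold-dam livers. The 18 °C mean was 0.56 ± 0.19 (SE) above control, 1.48-fold (limma adjusted p = 0.397, exact p = 0.0556), and the 10 °C mean was 0.39 ± 0.19 above it (limma adjusted p = 0.445, exact p = 0.151). The 30 °C mean was 0.13 ± 0.19 above control (limma adjusted p = 0.987). Over the 10 livers of both cold-dam groups against the 10 of the 23 and 30 °C groups, Tap1 was 0.41 ± 0.14 higher (limma adjusted p = 0.254). This pooling was chosen with earlier results of these data known.

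Tap2, the other transporter chain, did not share that order. Its means were 6.32 ± 0.35, 6.01 ± 0.27, 6.03 ± 0.27 and 6.11 ± 0.26 (SD, n = 5) at 10, 18, 23 and 30 °C. The 10 °C mean was 0.29 ± 0.18 (SE) above control (limma adjusted p = 0.558), and the 18 °C mean differed from control by -0.02. Tapbp, which bridges TAP and the class I molecule, was the gene whose mean lay below control in all 3 other groups. Control livers gave 10.18, 10.33, 10.61, 10.63 and 10.10, and 10 °C livers gave 9.61, 10.07, 10.33, 10.33 and 9.87. The groups overlapped. The difference from control was -0.33 ± 0.18 (SE) at 10 °C, -0.25 at 18 °C and -0.30 at 30 °C (limma adjusted p = 0.478, 0.71 and 0.978), again against the same 5 livers.

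B2m encodes the light chain that every classical class I molecule needs. It varied least, from 19.39 to 19.72 over the 20 arrays, near the highest value in the deposited data (19.93), and whether its probes were saturated was not tested. The 18 °C livers gave 19.62, 19.60, 19.62, 19.72 and 19.61, and the 30 °C livers gave 19.50, 19.53, 19.59, 19.54 and 19.39. Every 18 °C liver was above every 30 °C liver, by a mean of 0.12 on the log2 scale or 1.09-fold. The exact p was 0.00794 and the limma adjusted p was 0.788, limma's SE of 0.098 being larger than the group SDs of 0.049 and 0.074. The 30 °C mean was 0.10 below control (exact p = 0.0238, limma adjusted p = 0.986).

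**Figure D2:**
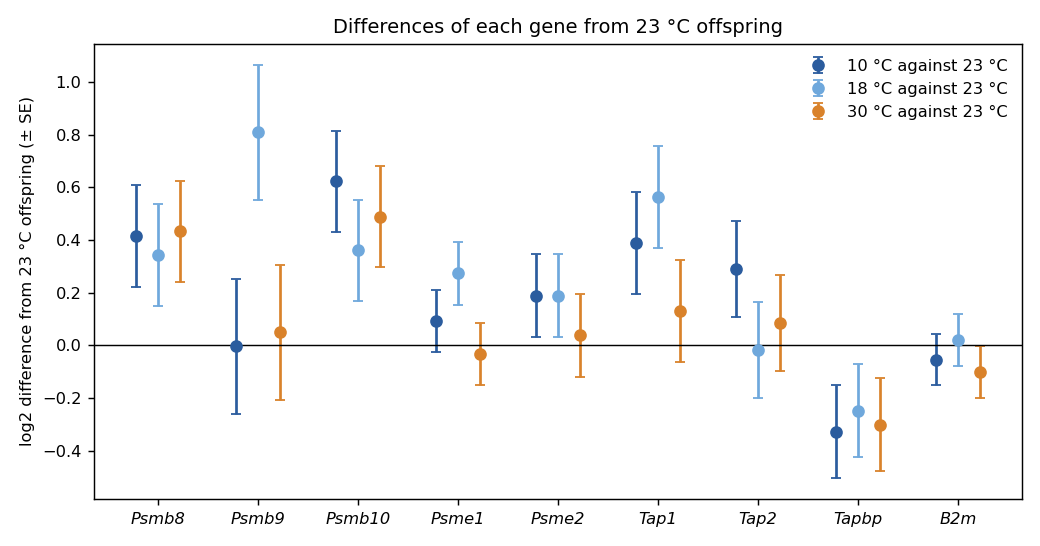
Differences of each gene from the 23 °C offspring on the log2 scale (vertical axis), with limma SEs as bars, for 10, 18 and 30 °C dams. Psmb9 stands out at 18 °C (0.81). Psmb8, Psmb10, Psme2 and Tap1 are above 0 in all 3 groups and Tapbp is below 0 in all 3. All 3 series share the same control livers.

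Set side by side, 6 of 9 genes were higher than control at 10 °C, 7 at 18 °C and 6 at 30 °C. The median difference was 0.19 at 10 °C, 0.27 at 18 °C and 0.049 at 30 °C, beside medians of 0.0024, -0.0020 and -0.0055 over all transcript clusters. Limma called none of the 9 in any of the 3, where it called 0.00901% of all clusters at 10 °C, 0% at 18 °C and 0% at 30 °C. At an unadjusted limma p under 0.05, 2 genes were higher at 10 °C (Psmb8 and Psmb10), beside 5.73% of all clusters. At 18 °C there were 3 (Psmb9, Psme1 and Tap1), beside 4.36%, and at 30 °C there were 2 (Psmb8 and Psmb10), beside 2.21%. Groups without overlap and higher than control were found for Psmb10 at 10 °C, where 1.05% of clusters had this, and for Psme1 at 18 °C, where 0.77% had it. Leaving out 1 liver of the 10 °C group, animal 6, raised the unadjusted count there from 2 to 5 and the median to 0.31, while leaving out animal 5 lowered the median to 0.11.

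The remaining comparisons leave the control group out or pool it. The 10 °C and 18 °C groups differed at an unadjusted limma p under 0.05 for Psmb9 only, lower at 10 °C, beside 3.79% of clusters lower and 0% called. For 10 against 30 °C, 0 of 9 genes passed the unadjusted threshold in either direction, beside 6.76% of clusters and 0% called. For 18 against 30 °C, Psmb9, Psme1 and Tap1 passed it with higher levels at 18 °C, beside 4.21% of clusters and 0% called. Without animal 5 of the 30 °C group 1 gene in place of 3 passed it. B2m had no overlap and was higher at 18 °C, as were 0.639% of clusters. With the cold-dam groups pooled against the other two, 8 of 9 genes were higher (median 0.17, all clusters 0.0038), and Psmb9, Psme1 and Tap1 passed the unadjusted threshold, beside 5.71% of clusters. Of all clusters, 0.0045% were called in that pooled comparison, which was chosen with earlier results of these data known. A test of any difference among the 4 groups gave unadjusted limma p of 0.0100 for Psmb9, 0.0226 for Psmb10 and 0.0345 for Tap1, beside 9.86% of clusters under 0.05 and 0% called, and the smallest adjusted p was 0.388. Without animal 15 of the control group only 1 gene passed that unadjusted threshold. A linear slope on maternal temperature passed it for none of the 9, beside 8.15% of clusters and 0% called. Tap1 had the smallest p, with a slope of -0.19 ± 0.10 (SE) per 10 °C (limma adjusted p = 0.651).

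The array carries 23 control rows that report background signal, and on average these were brighter in the cold-dam groups. Their mean was 3.71 ± 0.02 at 10 °C, 3.71 ± 0.04 at 18 °C, 3.65 ± 0.02 at 23 °C and 3.66 ± 0.06 at 30 °C (SD, n = 5). The lowest 10 °C array (3.682) lay above the highest control array (3.679), so background and maternal temperature cannot be cleanly told apart there. The brightest array of all was from the 30 °C group (3.754). With mean background signal added to the fit as a covariate, the median difference of the 9 genes was 0.062 at 10 °C, 0.081 at 18 °C and 0.068 for the pooled comparison. The genes did not move together under it. Psmb9 and Tap1 at 18 °C stayed at 0.75 and 0.56, and Psmb8 became larger, at 0.61 for 10 °C and 0.54 for 18 °C. Psmb10 at 18 °C was 0.081, and Psme2 changed sign in both cold-dam groups, to -0.053 at 10 °C and -0.060 at 18 °C.

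**Figure D3:**
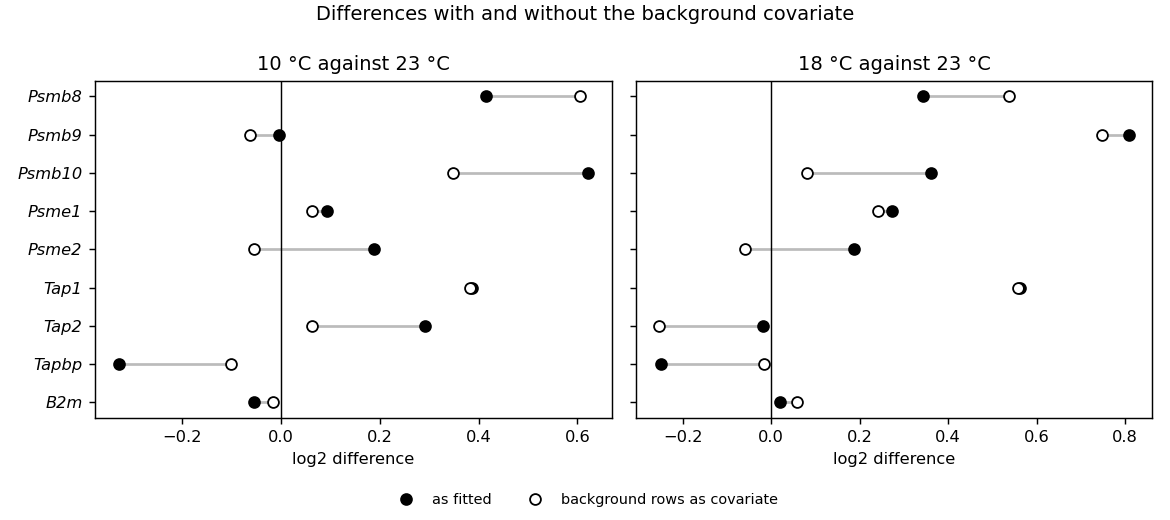
Log2 differences of the 9 genes from the 23 °C offspring (horizontal axes) for 10 °C and 18 °C dams, as fitted (filled points) and with mean background signal in the model (open points). Psmb9 and Tap1 stay near 0.75 and 0.56 at 18 °C, whereas Psmb10, Psme2 and Tap2 move to lower values and Psmb8 to higher ones.

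Within groups, the 9 genes were only loosely tied. After subtraction of group means over the 20 arrays, 26 of the 36 pairs correlated positively, the median r was 0.19, the range was -0.59 to 0.68, and 0 pairs passed an adjusted permutation p of 0.05. Psmb8 and B2m were the closest (Pearson r = 0.68, Spearman rho = 0.70, permutation p = 0.0019 and 0.00223, adjusted over 36 pairs 0.0684 for r), with an r of 0.60 without the 2 arrays farthest out. Psmb9 and Psme1 followed (r = 0.67, rho = 0.50, permutation p = 0.00479 and 0.0423, adjusted p = 0.0862 for r, r = 0.68 without the 2 farthest). Psmb9 and Tap1, which share their start region, correlated at r = 0.19 and rho = 0.26 (permutation p = 0.459 and 0.311, adjusted p = 0.714 for r), and at 0.39 without the 2 farthest arrays. Psmb8 and Psmb10, which enter the same particle, gave r = -0.56 and rho = -0.58 (permutation p = 0.0208 and 0.0180, adjusted p = 0.176 for r, r = -0.42 without the 2 farthest). The named genes most like the mean of the 9 standardised members within groups, over 20 arrays, were Lrrc8d (r = 0.82), Tmem9 (0.80), Ccar2 (0.79), Dennd2a (0.78, itself with a mean under 3.90), Txndc16 (0.75), Dlc1 (0.75), Zfp760 (0.74) and Slc25a1 (0.74). They were picked for the highest r among named genes outside the set, where 19572 clusters carry 1 gene symbol. Picking the top of so many makes r high by itself, and whether these genes vary with the set was not tested.

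Subunits of the standard core had a median difference close to 0. Of 14 standard 20S subunits 13 had a row, 8 were higher and 5 lower at 18 °C with a median of 0.018, and 0 were called. The 3 with the smallest p over the 4 groups were Psmb3, Psmb6 and Psma5, with limma adjusted p of 0.649, 0.657 and 0.740. Psmb6, which Psmb9 replaces, was 0.09 below control at 18 °C, so that Psmb9 relative to Psmb6 in the same array was 0.90 above control there. Psmb7, which Psmb10 replaces, was 0.14 above control at 10 °C, and Psmb10 relative to it was 0.48 above control. These relative values were chosen after the levels had been seen and are given as a description. Psmb5, which Psmb8 replaces, had no row, and its pair was not analysed here. Of the 7 assembly factors and other activators, 3 were higher and 4 lower at 18 °C, and Pomp, which matures new particles, was 0.32 lower than control at 10 °C (limma adjusted p = 0.365). Psmg2 and Psmg4, the assembly chaperones with the next smallest p, had limma adjusted p of 0.615 and 0.732 over the 4 groups.

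Means of the molecules that receive the peptides lay on both sides of control. Of 15 class I heavy chain genes 11 had a row, with 4 higher and 7 lower at 18 °C (median -0.035) and 5 higher and 6 lower at 10 °C (median -0.024), and 0 were called. H2-T3 had the smallest p and was 0.55 lower than control at 10 °C (limma adjusted p = 0.236), H2-T23 was 0.31 higher and H2-T24 0.41 higher there (limma adjusted p = 0.465 and 0.446). Heavy chain genes are near copies of one another, so their probes may share signal and these values are uncertain. Of the trimming and loading partners, 3 were higher and 3 lower in each comparison with control. Tapbpl, a tapasin relative, was 0.29 higher at 10 °C (limma adjusted p = 0.413), and the chaperones Canx and Pdia3 were 0.24 and 0.27 lower (limma adjusted p = 0.521 and 0.523). The class II pathway, which presents peptides from endosomes, had 7 genes higher and 4 lower at 10 °C (median 0.099) and 3 higher and 8 lower at 18 °C (median -0.10), and 6 of its 11 genes with a row had means above 3.90. Ctss, its processing protease, was 0.40 above control at 10 °C (limma adjusted p = 0.392), and H2-DMa and H2-Ob were among those with means under 3.90.

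Among the regulators, 11 of 12 interferon γ signalling genes had a row. Of these, 7 were higher at 10 °C (median 0.085), 6 at 18 °C (median 0.022) and 6 at 30 °C (median 0.10). The receptor chain Ifngr2 and its kinase Jak2 were 0.42 and 0.33 above control at 10 °C (limma adjusted p = 0.358 and 0.416). The other receptor chain, Ifngr1, was 0.48 above it (limma adjusted p = 0.298) and is named after its value was seen. Irf9 was 0.06 below control at 10 °C (limma adjusted p = 0.904) and 0.41 higher at 18 than at 30 °C, without overlap (limma adjusted p = 0.472, exact p = 0.00794). Of all clusters, 0.639% were without overlap and higher at 18 than at 30 °C. Of 8 partner factors of Nlrc5 on class I promoters, 4 were higher and 4 lower at 10 °C, 2 higher and 6 lower at 18 °C, and 1 higher and 7 lower at 30 °C. Rfx5 and Atf1 were 0.50 and 0.42 below control at 18 °C (limma adjusted p = 0.584 and 0.491), and Creb1 differed by -0.0085 (limma adjusted p = 0.994). At 10 °C Rfx5 was 0.34 above control (limma adjusted p = 0.654).

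Other interferon-induced genes mostly had higher means in both cold-dam groups. Of 15 interferon-induced GTPases 11 had a row, 8 of them higher at 10 °C (median 0.21) and 9 at 18 °C (median 0.23), against 4 at 30 °C (median -0.055). Igtp was 0.77 above control at 18 °C (limma adjusted p = 0.249) and 0.63 above it at 10 °C (limma adjusted p = 0.170), whereas Gbp8 was 0.45 below control at 10 °C (limma adjusted p = 0.287). Gbp9 was 0.48 above control at 18 °C (limma adjusted p = 0.462). Of 20 antiviral genes 19 had a row, 15 of them higher at 10 °C (median 0.21) and 16 at 18 °C (median 0.13), against 6 at 30 °C (median -0.15). Ifit1, which binds foreign RNA, was 0.78 above control at 18 °C (limma adjusted p = 0.210), Irf7 was 0.66 above it at 10 °C (limma adjusted p = 0.328) and Rtp4 was 0.39 above it at 18 °C (limma adjusted p = 0.50). None of the lists held a called gene.

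**Figure D4:**
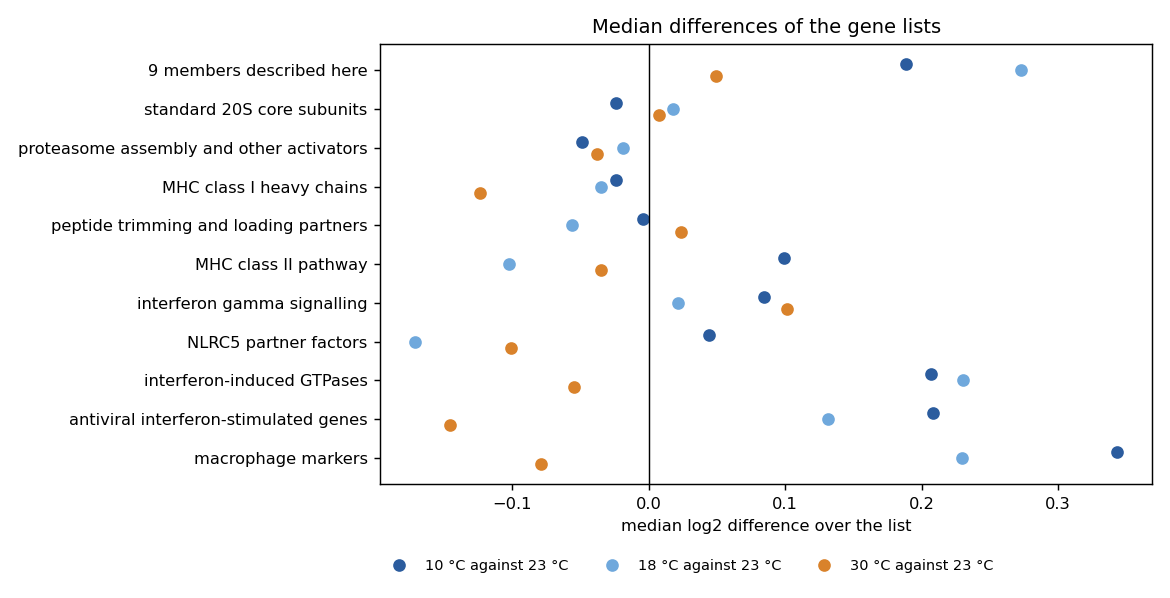
Median log2 difference from the 23 °C offspring (horizontal axis) of the 9 genes and of each list of related genes, for 10, 18 and 30 °C dams. The 9 genes (0.19 and 0.27), the GTPases, the antiviral genes and the macrophage markers are above 0 for 10 and 18 °C dams, and the standard core subunits are close to 0.

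Of 11 macrophage markers 10 had a row, all above 3.90, and 9 had higher means than control at 10 °C (median 0.34) and 9 at 18 °C (median 0.23), against 3 at 30 °C (median -0.079), with 0 called. Their summed level, on the log2 scale, ranged from 11.55 to 12.02 at 10 °C, 11.35 to 12.19 at 18 °C, 10.72 to 11.80 at 23 °C and 10.82 to 11.99 at 30 °C, so the groups overlapped. Adgre1, a pan-macrophage surface receptor, was 0.88 above control at 18 °C (limma adjusted p = 0.338), and Clec4f, a Kupffer cell marker, was 0.06 above it (limma adjusted p = 0.962). Markers of NK cells and B cells with a row, 6 and 4, all had means under 3.90, and of 7 T cell markers 2 were above it. The T cell markers had medians of 0.26 at 10 °C and -0.033 at 18 °C. Of 6 sinusoidal endothelial markers, all above 3.90, 4 were higher than control at 10 °C (median 0.19), 5 at 18 °C (median 0.19) and 4 at 30 °C (median 0.046), and their summed log2 levels ranged from 12.41 to 12.68, 12.17 to 12.77 and 12.21 to 12.52, beside 12.12 to 12.55 in control. Of the 8 hepatocyte markers 7 were lower than control at 10 °C (median -0.040) and 8 at 18 °C (median -0.037), with 0 called. Their list means overlapped, at 19.14 to 19.24 at 10 °C and 19.13 to 19.24 at 18 °C, beside 19.20 to 19.33 in control. These levels are near the highest value in the deposited data (19.93), and whether the probes were saturated was not tested. The part of these cell types in the differences of the 9 genes was not tested.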

How the data were processed

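Liver RNA of 20 offspring was hybridised to Affymetrix arrays, 1 array per animal. The deposited values are log2 expression per transcript cluster, normalised by the authors with RMA, and Transcriptome Analysis Console is also named, per the submitters' processing notes; versions and the genome build are not given in the sources used here. RMA makes arrays alike in distribution and can compress differences, which was not checked for these values. Array medians ran from 4.46 to 4.56, correlations between arrays from 0.987 to 0.993, and no arrays were identical. The number of arrays limits the precision. Of 28846 rows, 6640 control rows were left out, and 22206 clusters were tested, 19572 of them with 1 gene symbol in the platform annotation, 0 with several and 2634 with none.

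Groups came from the labels. A linear model with 1 mean for each group and all 20 arrays was fitted in limma (version 3.58.1, R 4.3.3) with moderated variances and Benjamini-Hochberg adjustment over all clusters, after a test on simulated data. Single genes were also compared by exact permutation of animals. A gene with several clusters was read from that with the highest mean. From each list of related genes, those that passed or the 3 with the smallest p over the 4 groups are named, together with the 8 genes most like the member mean. Members, lists and the pooled comparison were chosen with earlier results of these data known. The alternatives were robust variance with an intensity trend, a level filter, renewed quantile normalisation, median centring, array weights, mean background signal as a covariate, a replicate block, fits of only the groups compared, and each array left out.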

Additional observations from a re-analysis of the deposited data

Results flagged for a closer look

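Within groups of 5 livers, the 9 genes gave 36 sets of values to search for a sample far from the others. Of these, 2 were marked, and chance marks about 1 set in 20. For Psmb10 in the 10 °C group, animal 5 had a log2 value of 7.47, below the other 4 livers at 7.81 to 7.89, yet still above every control liver. Without it the difference from control was 0.70 in place of 0.62. For B2m in the 18 °C group, animal 5 had 19.72, above the other 4 at 19.60 to 19.62. The same animal had the highest Psmb8 (8.32), Psmb9 (7.85), Psme1 (15.44) and Tapbp (10.475) of its group. It also had the lowest Psmb10 (7.35), Psme2 (9.93) and Tap2 (5.66) of that group. What set these samples apart was not tested.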

How the results depend on the processing

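No member was called by limma in any of the 249 counts made under other settings, and the smallest adjusted p among all settings was 0.139, for Psmb10 at 10 °C with array weights. Of 109 values of the differences at an unadjusted p under 0.05, 107 moved by less than 1 SD within groups under settings other than leaving out an array, and 0 changed sign. That SD was 0.32 for Psmb8, whose difference from control at 10 °C was 0.42, so a move within it can be large. With the replicate block this difference was 0.16, and that of Psmb9 at 18 °C was 0.46 in place of 0.81. The difference of Tap1 at 18 °C rose from 0.56 to 0.93 with that block. The block used the animal number, and the numbers of control animals 15, 17 and 23 occur in no other group. Blocked differences from control therefore rest on control animals 1 and 2. What the block and the smaller set of livers each contributed was not tested. Of all 558 differences under settings other than leaving out an array, 27 changed sign, and of 1440 with 1 array left out 44 did.

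Counts at an unadjusted p under 0.05 were less stable. For 10 against 23 °C the count of 2 was 1 with renewed quantile normalisation, 1 with the background covariate and 0 with the replicate block. With the background covariate the pooled count of 3 was 1, and the medians were 0.0623 for 10 against 23 °C and 0.0814 for 18 against 23 °C. With only the 2 groups compared in the fit, the count for 30 against 23 °C was 1. With each array left out in turn, counts ranged from 1 to 5 for 10 against 23 °C and for the pooled comparison, 1 to 2 for 10 against 18 °C and for 30 against 23 °C, 1 to 3 for 18 against 30 °C, 1 to 4 for the 4-group test and 0 to 2 for the slope. The median for 10 against 23 °C ranged from 0.107 to 0.310. The pooled count was 5 without animal 4 of the 30 °C group and 1 without animal 5 of the 30 °C group or animal 5 of the 10 °C group. The slope count was 2 without animal 6 of the 10 °C group. The cause of these moves was not tested.

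Animal numbers recur between groups, but over 11 same-numbered pairs the deviations from group means correlated at -0.15 to 0.11 (median -0.0004), with 1 pair over 0.1, so the numbers were not taken as pairing the animals. With the number as a replicate block, the unadjusted counts were 1 for 18 against 23 °C, 0 for 30 against 23 °C, 1 for 18 against 30 °C, 1 for the pooled comparison and 1 for the 4-group test, and the median for 18 against 23 °C was 0.136. Control animals 15, 17 and 23 and animal 3 of the 18 °C group add nothing to these fits, since their numbers occur in no other group. Over the whole table, 2 clusters were called for 10 against 23 °C. Whole-table counts were taken under all settings except the fits of only the groups compared. The count for 10 against 23 °C ranged from 0 to 22. It was 0 with array weights and with renewed quantile normalisation, and 22 without animal 23 of the control group. The other whole-table counts were 0 to 3 for 18 against 23 °C, 0 to 3 for 18 against 30 °C, 0 to 6 for the pooled comparison (1 as reported), 0 to 7 for the 4-group test, 0 to 2 for 10 against 30 °C, and 0 to 1 for 10 against 18 °C and for the slope. With 5 arrays a group, the depth of the comparison is set by the number of animals.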
